A study of Mus musculus with 4 samples.

Results

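The inner arm axonemal dynein heavy chains were described in testes of 14-day-old mice as 10 of the 55335 genes in the count table, Dnah1, Dnah2, Dnah3, Dnah6, Dnah7a, Dnah7b, Dnah7c, Dnah10, Dnah12 and Dnah14. They were chosen by gene family and matched by symbol, with the difference between the genotypes in these same libraries already known, so that their values in that comparison are given as a description with no test. The libraries were 2 of genotype Znhit1_KO and 2 of genotype CTRL, all of polyadenylated RNA from testis at postnatal day 14. ZNHIT1 belongs to the SRCAP remodeller, an enzyme that loads the histone variant H2A.Z into nucleosomes. The allele behind the label Znhit1_KO, any Cre driver, the genotype of the CTRL animals and the number of animals per library are left unstated in the labels, which call the replicates independent. The design text of the series names germ cells where the labels name testis, and Sertoli cell markers were abundant in every library.

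The axoneme of sperm flagella and motile cilia carries outer and inner rows of dynein arms on its microtubule doublets. The outer arms mainly set the beat frequency, and the inner arms shape the waveform. Each arm contains a very large motor protein, the heavy chain, whose ring of AAA domains hydrolyses ATP. DNAH2 and DNAH10 pair in the dimeric inner arm dynein known as dynein f, and the other inner arm heavy chains form single-headed dyneins. In the testis the genes are transcribed in germ cells that go on to build a flagellum, and in the first wave of spermatogenesis the testis at this age holds spermatocytes but no spermatids.

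All 10 genes code for proteins of 3960 to 4591 residues in the GENCODE M21 annotation of mm10. Dnah7a, Dnah7b and Dnah7c lie on chromosome 1, at 53397006 to 53706784, 46066315 to 46373546 and 46425592 to 46807476, so that Dnah7b and Dnah7c are neighbours. They are mouse copies of a gene that is single in humans. Their coding sequences were 96.96% identical between Dnah7a and Dnah7b, 96.84% between Dnah7a and Dnah7c and 97.27% between Dnah7b and Dnah7c. Of all 100-base windows of the longest coding transcript, 19.96% in Dnah7a, 23.5% in Dnah7b and 24.88% in Dnah7c occurred letter for letter in another copy, against 0 windows of 50 or 100 bases in the other 7 genes. The division of reads among the Dnah7 copies is therefore uncertain, and the labels state neither the read length nor how multiply mapped reads were treated. Dnah14 is also on chromosome 1 (181576559 to 181815774), Dnah1 and Dnah12 are on chromosome 14 (31260375 to 31323896 and 26693274 to 26891703), Dnah2 on chromosome 11 (69420809 to 69549110), Dnah3 on chromosome 7 (119922671 to 120095280), Dnah6 on chromosome 6 (73017606 to 73221651) and Dnah10 on chromosome 5 (124725085 to 124834308).

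The stretch that codes for the phosphate-binding loop of the AAA1 domain shows how alike the copies are and how far the other chains have diverged. The loop was found in the reading frame of all 10 genes. Each line gives 84 bases of the GENCODE M21 coding sequence, 5′ to 3′ on the coding strand, with the 24 bases of the loop in capitals.
Dnah7a: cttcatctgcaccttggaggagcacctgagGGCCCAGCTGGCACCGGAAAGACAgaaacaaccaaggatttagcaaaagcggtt
Dnah7b: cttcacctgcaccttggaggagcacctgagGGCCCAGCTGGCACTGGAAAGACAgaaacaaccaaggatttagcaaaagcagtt
Dnah7c: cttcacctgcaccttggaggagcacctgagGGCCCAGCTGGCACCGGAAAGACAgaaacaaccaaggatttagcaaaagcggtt
Dnah1: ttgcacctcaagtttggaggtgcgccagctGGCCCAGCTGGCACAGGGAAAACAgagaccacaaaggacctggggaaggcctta
Dnah2: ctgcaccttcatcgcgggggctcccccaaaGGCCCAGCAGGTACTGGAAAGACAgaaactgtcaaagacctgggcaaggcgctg
Dnah10: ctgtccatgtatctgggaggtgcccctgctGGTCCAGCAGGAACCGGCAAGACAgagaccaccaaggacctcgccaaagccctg
Counted from 1 at the left, Dnah7a differs from Dnah7b at 3 positions (C6T, T45C and A81G, with the base of Dnah7b first), and Dnah7c differs from Dnah7b at 2 (T45C and A81G). Over the same 84 bases Dnah1 differs from Dnah7b at 26, Dnah2 at 27 and Dnah10 at 25 positions. The chains not printed differ from it at 21 (Dnah3), 22 (Dnah6), 23 (Dnah12) and 31 (Dnah14) positions.

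Promoters, taken as 250 bases before to 50 after the transcript start in RefSeq (GRCm38.p6), were at hand for 9 of the 10 genes, all but Dnah3. Motile cilium genes are often bound by RFX factors at an inverted repeat called the X-box. An inverted repeat with arms GTTGC and GCAAC and 3 to 5 bases between them stood in 4 of the 9 promoters and in 144 of 32851 promoters of all genes, or 0.438%. The repeat was chosen after the sequences were seen, and 3 of the 4 promoters belong to the near-identical Dnah7 copies, so they share their source. The 120 bases before the start are given 5′ to 3′ on the strand of the gene, with the repeat in capitals.
Dnah6, chr6:73221632-73221751, minus strand: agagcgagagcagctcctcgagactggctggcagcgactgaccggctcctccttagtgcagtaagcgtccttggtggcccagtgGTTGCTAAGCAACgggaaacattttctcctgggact
Dnah7a, chr1:53706785-53706904, minus strand: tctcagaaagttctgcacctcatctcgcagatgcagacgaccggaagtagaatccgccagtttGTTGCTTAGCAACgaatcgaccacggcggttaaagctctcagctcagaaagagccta
Dnah7b, chr1:46066733-46066852, plus strand: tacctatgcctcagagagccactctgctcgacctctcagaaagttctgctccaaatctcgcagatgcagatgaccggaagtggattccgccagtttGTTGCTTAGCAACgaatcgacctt
Dnah7c, chr1:46425398-46425517, plus strand: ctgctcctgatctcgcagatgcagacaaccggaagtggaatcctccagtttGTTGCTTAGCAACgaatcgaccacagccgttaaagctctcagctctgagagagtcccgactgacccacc
Counted from the transcript start, the first base of the repeat lay at -36 in Dnah6, -57 in Dnah7a, -24 in Dnah7b and -69 in Dnah7c. Of a pair of known motifs searched in the whole promoter, GTTGCCA, an RFX site that begins with the letters of the repeat's left arm, was found on either strand in 2 of the 9 promoters (Dnah7b and Dnah10) and in 4.38% of all promoters. AACTGNC, a form of the MYB site, was found in 3 (Dnah7a, Dnah7b and Dnah12) and in 12.78%. No match of either overlapped a printed repeat. These are matches of letters and not measured binding.

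The estimated counts of the 4 libraries summed to between 129531714 and 157790457 each. Log2 CPM (counts scaled to a common library size, TMM-normalised) correlated at between 0.942 and 0.974 across genes for all pairs of libraries. The Znhit1_KO pair had 0.974 and the CTRL pair 0.969, while Znhit1_KO replicate 1 and CTRL replicate 1 had 0.972. Znhit1 stood at 3.15 and 2.14 CPM in Znhit1_KO replicates 1 and 2, against 17.3 and 31.9 CPM in CTRL replicates 1 and 2. Mitochondrial genes took 3.12% to 4.12% of counts. The edgeR quasi-likelihood test with Benjamini-Hochberg adjustment called 0 of 24116 genes, or 0%, at 0.05, with 2590 at an unadjusted p under that value. DESeq2 called 1041, of which 930 were lower in Znhit1_KO (3.86% of genes), and limma-voom called 0. EdgeR called 754 without CTRL replicate 1.

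For 9 of the 10 heavy chain genes each Znhit1_KO library had lower CPM than each CTRL library, and Dnah3 overlapped. Over all genes tested, 21.3% had both Znhit1_KO values lower and 21.8% both higher. EdgeR called 0 of the 10, with 9 lower by an unadjusted p under 0.05, against 1868 lower of all 24116 genes tested. By the call in the authors' deposited table, 7 of the 10 are lower and 0 higher, against 3.22% of its genes marked lower and 0.277% higher, and DESeq2 called the same number, 7. Since the genes were chosen with this difference known, nothing is read from these shares. All 10 passed the filter on low counts. Their log2 changes (Znhit1_KO minus CTRL) had a median of -1.70, against 0.031 over all genes tested. Leaving out CTRL replicate 1 gave a median of -1.98, and leaving out CTRL replicate 2 gave -1.34. In RNA of a whole testis, fewer cells of a type and less RNA per cell cannot be told apart.

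**Figure D1:**
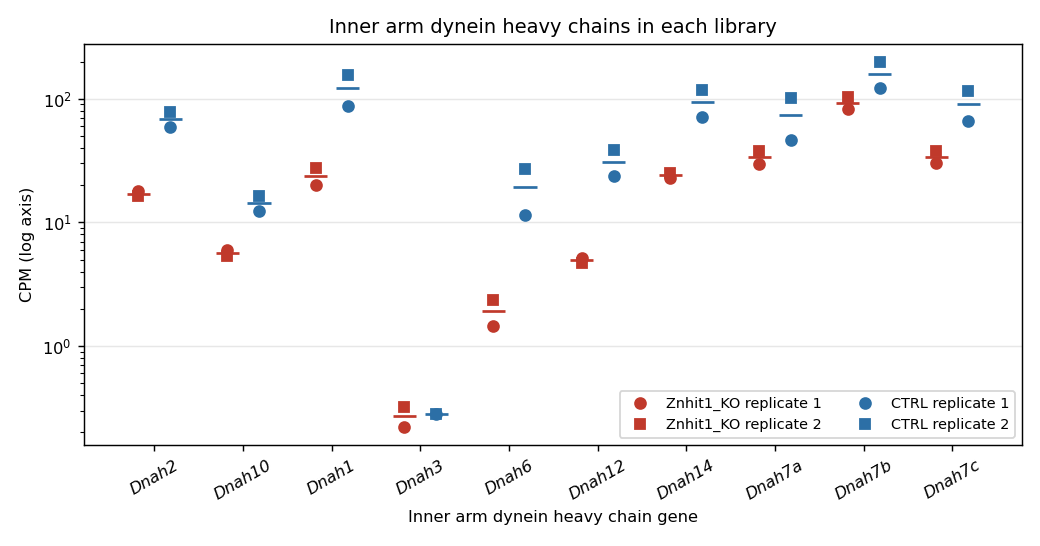
CPM on a log axis of each of the 10 genes, with 1 point per library (circles for replicate 1, squares for replicate 2) and a bar at the mean of each genotype; Znhit1_KO is left of CTRL. Red and blue points separate for every gene but Dnah3, and Dnah7b is the closest of the separated genes.

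By CPM, the heavy chains of dynein f differed from each other in size of change and had like ratios between replicates. Dnah2 had 17.9 and 16.2 CPM in Znhit1_KO, against 58.8 and 78.3 CPM in CTRL. Its log2 change was -2.01 (SE 0.208), the highest Znhit1_KO value being 0.304 of the lowest CTRL value. Dnah10 had 5.94 and 5.39 CPM in Znhit1_KO, against 12.3 and 16.3 CPM in CTRL, a log2 change of -1.34 (SE 0.249). Both groups were separate for both genes. The ratio of replicate 2 to replicate 1 by CPM was 0.908 in Znhit1_KO and 1.33 in CTRL for Dnah2. For Dnah10 it was 0.909 in Znhit1_KO and 1.33 in CTRL. Dnah12, not a partner, had 0.915 in Znhit1_KO and 1.61 in CTRL. By the authors' TPM the partners were less alike between replicates. Dnah2 had 4.55 and 3.85 TPM in Znhit1_KO and 14.3 and 16.2 TPM in CTRL. Dnah10 had 1.56 and 1.53 TPM in Znhit1_KO and 3.16 and 3.29 TPM in CTRL. With the authors' TPM and a pseudocount of 0.1, the log2 change was -1.83 for Dnah2 and -1.01 for Dnah10. At a pseudocount of 1 it was -1.64 for Dnah2 and -0.73 for Dnah10. The ratio of their changes was not tested.

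Among the single-headed chains, Dnah6 had the largest log2 change of the 10 by CPM, -3.33 (SE 0.518). Without CTRL replicate 2 it was -2.59, and with the authors' TPM and a pseudocount of 1 it was -1.70, behind Dnah1 (-2.03) and Dnah12 (-1.82). It stood at 1.46 and 2.37 CPM in Znhit1_KO, against 11.5 and 27.1 CPM in CTRL. The CTRL libraries differed from each other by a factor of 2.35, the widest replicate difference of the 10 genes, and the groups did not overlap. Dnah12 stood at 5.17 and 4.73 CPM in Znhit1_KO, against 23.8 and 38.2 CPM in CTRL, a log2 change of -2.65 (SE 0.296). Its lowest CTRL value was 4.60 times its highest Znhit1_KO value. Dnah1, whose loss in mice leaves males infertile with poorly motile sperm, stood at 20.3 and 27.6 CPM in Znhit1_KO, against 88.1 and 155 CPM in CTRL. Its log2 change was -2.35 (SE 0.331), with no overlap. Dnah14 stood at 23.0 and 24.9 CPM in Znhit1_KO, against 70.7 and 118 CPM in CTRL. Its log2 change was -1.98 (SE 0.280), and the Znhit1_KO libraries lay close together while the CTRL libraries differed by a factor of 1.68. Dnah3 stood at 0.222 and 0.324 CPM in Znhit1_KO, against 0.281 and 0.280 CPM in CTRL, from estimated counts of 35 and 45 in Znhit1_KO and 38 and 36 in CTRL. Its log2 change was -0.043 (SE 0.573), and at this depth no difference was detectable.

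The Dnah7 copies, of which Dnah7b had the highest CPM of the 10 genes, had log2 changes between -1.41 and -0.78. Dnah7b stood at 83.3 and 103 CPM in Znhit1_KO, against 122 and 198 CPM in CTRL, with a log2 change of -0.78 (SE 0.269). The gap between the groups was narrow, the highest Znhit1_KO value being 0.842 of the lowest CTRL value. Dnah7a stood at 29.4 and 37.8 CPM in Znhit1_KO, against 46.0 and 102 CPM in CTRL, with a log2 change of -1.13 (SE 0.395). Dnah7c stood at 30.2 and 37.8 CPM in Znhit1_KO, against 65.6 and 115 CPM in CTRL, with a log2 change of -1.41 (SE 0.308). CTRL replicate 2 weighed heavily here: without it the log2 changes were -0.45 for Dnah7a, -0.39 for Dnah7b and -0.95 for Dnah7c. Since reads may be divided differently among the copies, they were also summed before the fit. The sum was 141 and 181 CPM in Znhit1_KO, against 238 and 406 CPM in CTRL, with a log2 change of -0.99 (SE 0.293). With the copies as 1 gene the median over the resulting 8 genes was -1.98, and 7 of the 8 did not overlap.

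The copies took a larger part of the family's transcripts in Znhit1_KO. The authors' TPM (transcript abundance corrected for length and library size) summed over the 10 genes to 52.5 and 61.5 in Znhit1_KO, against 119 and 176 in CTRL. Dnah7a, Dnah7b and Dnah7c made up 67.5% and 70.95% of that sum in Znhit1_KO, against 50.45% and 53.6% in CTRL. Dnah7b alone made up 34.2% and 35.3% in Znhit1_KO, against 22.4% and 21.5% in CTRL. Dnah1 made up 7.85% and 8.92% in Znhit1_KO, against 15.2% and 15.8% in CTRL, and Dnah6 0.559% and 0.768% in Znhit1_KO, against 2.01% and 2.81% in CTRL. The groups did not overlap in any of these shares. The shares of Dnah7c, 12.02% and 12.8% in Znhit1_KO and 11.9% and 12.4% in CTRL, overlapped. All these shares depend on how reads were divided among the copies, which is uncertain. They also count TPM of Dnah7a that may come from a short transcript, described below.

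**Figure D2:**
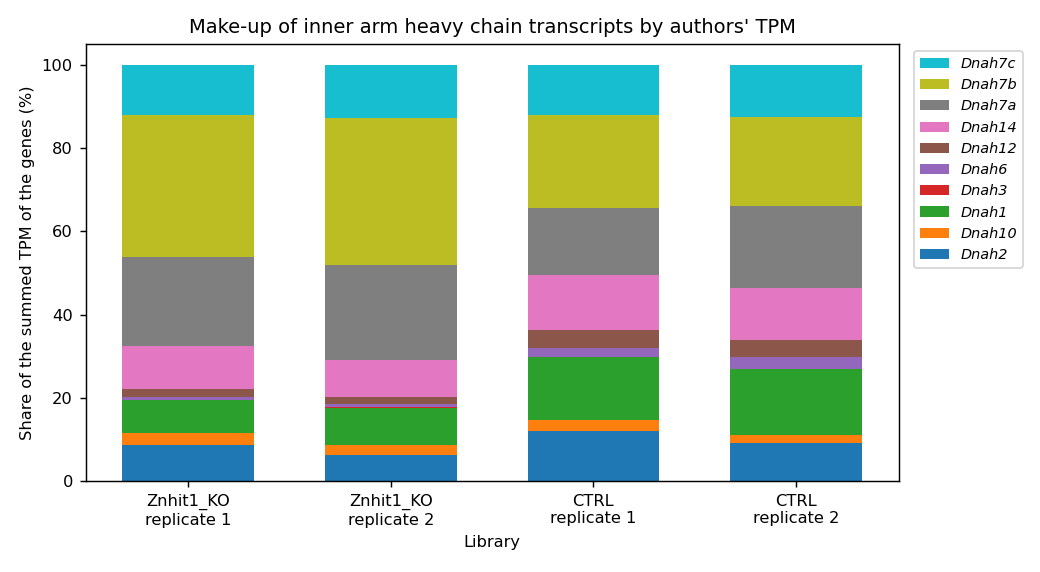
Stacked bars of the share (%) of each of the 10 genes in their summed authors' TPM, 1 bar per library, Znhit1_KO left. The upper 3 blocks, the Dnah7 copies, reach 67.5% and 70.95% in Znhit1_KO, against 50.45% and 53.6% in CTRL, and the green Dnah1 block is narrower in Znhit1_KO.

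By TPM, which allows genes to be compared, Dnah7b was the highest in every library, with 18.0 and 21.7 TPM in Znhit1_KO and 26.7 and 37.7 TPM in CTRL. In CTRL the means ran from Dnah7b (32.2 ± 7.81 TPM, SD, n = 2) through Dnah7a (26.9 ± 10.9), Dnah1 (23.0 ± 6.85), Dnah14 (18.9 ± 4.39) and Dnah7c (18.0 ± 5.39) to Dnah2 (15.2 ± 1.32). The range of each of these over the CTRL libraries overlapped that of its neighbour in the order. Within each CTRL library, Dnah7b, Dnah7a, Dnah1 and Dnah14 held ranks 1, 2, 3 and 4. Dnah7c and Dnah2 changed places between the CTRL libraries. Below a gap followed Dnah12 (6.28 ± 1.496 TPM), Dnah6 (3.67 ± 1.80), Dnah10 (3.22 ± 0.0905) and Dnah3 (0.076 ± 0.024), of which Dnah6 and Dnah10 overlapped. In Znhit1_KO the first places were those of Dnah7b (19.8 ± 2.66 TPM, SD, n = 2), Dnah7a (12.6 ± 2.04) and Dnah7c (7.08 ± 1.09), which did not overlap. Dnah14 (5.38 ± 0.0010 TPM), Dnah1 (4.804 ± 0.965) and Dnah2 (4.202 ± 0.490) followed, with Dnah1 overlapping both others. Dnah10 (1.54 ± 0.023 TPM) stood above Dnah12 (1.05 ± 0.0704) and Dnah6 (0.383 ± 0.126), whereas in CTRL its mean was below both.

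The deposited counts and TPM together also give a length. In genes with 1 annotated transcript and over 500 counts, the count divided by TPM and by transcript length was the same within 1% for 100% of genes in each library. For a gene with several transcripts this ratio gives the abundance-weighted mean length of those that the authors' quantification assigned. The mean length was 97.2% to 100.3% of the longest annotated transcript in all libraries for Dnah1, Dnah6, Dnah7c and Dnah12, and 95.9% to 98.0% for Dnah7b. For Dnah7a it was 54.9% and 55.5% in Znhit1_KO, against 51.6% and 55.4% in CTRL. Dnah7a has 2 annotated transcripts in M21, of 12245 and 732 bases. If only these were used, the short one, of 4 exons, made up 48.0% and 47.3% of the gene's TPM in Znhit1_KO, against 51.5% and 47.5% in CTRL. The long one then had 5.80 and 7.40 TPM in Znhit1_KO, against 9.30 and 18.1 TPM in CTRL. The place of Dnah7a just below Dnah7b by TPM thus includes a large part from the short transcript. Gene versions were the same as in M21 for 8 of the 10 genes, Dnah7a among them, and differed for Dnah7b and Dnah14.

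The implied length of Dnah2, Dnah10 and Dnah14 lay between 63.4% and 90.7% of the longest transcript. Dnah10 had 69.0% and 63.4% in Znhit1_KO, against 73.0% and 81.5% in CTRL. Dnah2 had 73.0% and 77.5% in Znhit1_KO, against 79.0% and 81.4% in CTRL. Dnah14 had 79.6% and 85.3% in Znhit1_KO, against 86.2% and 90.7% in CTRL. With Dnah1 and Dnah7b they made up 5 of the 9 heavy chain genes with over 200 counts in each library whose implied length was shorter in both Znhit1_KO libraries than in both of CTRL. Of 11958 genes with several transcripts and over 200 counts, 19.5% were likewise shorter. In the other direction, 1 of the 9, Dnah7c, was longer in both Znhit1_KO libraries, as were 1544 of the 11958 genes. Some of these gaps were narrow beside the 1% within which genes with 1 transcript were alike. Dnah1 had 97.2% and 98.47% in Znhit1_KO, against 99.35% and 99.6% in CTRL. Dnah7b had 95.9% and 96.95% in Znhit1_KO, against 97.71% and 98.0% in CTRL. Dnah7c had 99.67% and 99.64% in Znhit1_KO, against 99.32% and 99.63% in CTRL. No test of these lengths was made.

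**Figure D3:**
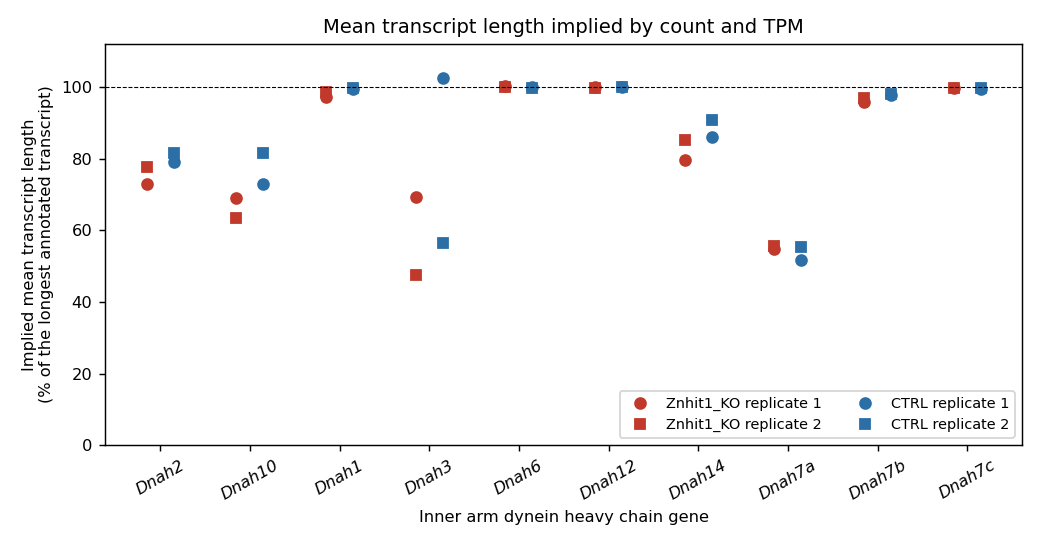
Mean transcript length implied by the deposited count and TPM, as a percentage of the longest annotated transcript (dashed line at 100%), for each gene and library, Znhit1_KO left of CTRL. Dnah7a lies between 51.6% and 55.5% in every library, Dnah6 and Dnah12 lie at the line, and the Dnah3 points scatter, from few counts.

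Some annotated genes overlap the heavy chain genes on the opposite strand, and the labels do not say whether the libraries keep strand, so reads of the pairs cannot be told apart. The antisense gene Gm35823, inside Dnah1, had estimated counts of 11 and 22 in Znhit1_KO and 86 and 62 in CTRL. Dnah2os, inside Dnah2, had 10 and 12 in Znhit1_KO and 3 and 6 in CTRL. Both are small beside the 3200 and 3827 counts of Dnah1 and the 2823 and 2254 counts of Dnah2 in Znhit1_KO. Lyrm1, which overlaps the weakly expressed Dnah3, had 1478 and 1301 counts in Znhit1_KO and 1470 and 1413 in CTRL. Lbr, which overlaps the end of Dnah14, had 12741 and 12598 counts in Znhit1_KO and 11454 and 11935 in CTRL, against 3639 and 3461 counts of Dnah14 in Znhit1_KO and 9540 and 15211 in CTRL.

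The other parts of the inner arm system were mostly lower too. In 3 lists compiled by function, covering 27 genes for inner arm intermediate and light chains, for tethers and docking factors and for the nexin-dynein regulatory complex, edgeR called 0, with 18 lower and 0 higher by an unadjusted p under 0.05. In the authors' deposited table the call marks 12 lower and 0 higher, and DESeq2 called 14 lower and 0 higher. These counts rest on unlike rules. The authors' call leaves Efcab2 and Iqcg unmarked, with log2 changes of -0.79 and -0.98 in their table. The adjusted p of the authors' DESeq2 Wald test was 0.0109 and 0.0233 for these genes. The median log2 change was -1.58, and for 22 of the 27 both Znhit1_KO values lay below both CTRL values. Over all genes tested, 21.3% lay so, 1868 of 24116 were lower by an unadjusted p under 0.05, DESeq2 called 3.86% lower, and the authors' deposited table marks 3.22% lower. The lists were compiled with results of these data known.

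Of 6 intermediate and light chains, 4 were lower in both Znhit1_KO libraries, the median log2 change was -1.16, and the authors' deposited table marks 1. This was Dnali1, the light chain of single-headed inner arms, at 2.70 and 5.86 CPM in Znhit1_KO, against 10.5 and 29.4 CPM in CTRL (log2 change -2.22, SE 0.617). Wdr63, an intermediate chain of dynein f, had a log2 change of -1.73 (SE 0.690), with a narrow gap between the groups. It stood at 6.62 and 14.7 CPM in Znhit1_KO and 15.3 and 55.2 CPM in CTRL. Wdr78, the other intermediate chain of that dynein, had 15.9 and 8.89 CPM in Znhit1_KO, against 15.7 and 14.1 CPM in CTRL, and the groups overlapped. The remaining log2 changes were -1.36 for Dynlrb2, -0.95 for Tctex1d2 and -0.73 for Casc1.

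Of 10 tether and docking genes, 9 were lower in both Znhit1_KO libraries, the median log2 change was -1.70, and the authors' deposited table marks 6 lower. Cfap44 and Cfap43, which in other organisms tether dynein f to the doublet, had log2 changes of -2.62 (SE 0.470) and -1.78 (SE 0.459). Cfap44 stood at 1.96 and 2.54 CPM in Znhit1_KO, against 8.34 and 19.4 CPM in CTRL. Ccdc113, a partner of Ccdc96 in the axoneme, had the largest log2 change of the list, -2.90 (SE 0.555). It stood at 2.36 and 3.68 CPM in Znhit1_KO, against 12.03 and 33.0 CPM in CTRL. Ccdc96 had a log2 change of -0.69 (SE 0.219). Ccdc39 and Ccdc40 together form the ruler that sets the spacing of inner arms. Their log2 changes were -0.62 (SE 0.178) and -1.58 (SE 0.295), and the authors' deposited table marks Ccdc40. Cfap100 stood at 0.506 and 0.454 CPM in Znhit1_KO and 0.629 and 0.343 CPM in CTRL, and the groups overlapped. The log2 changes of Cfap57, Cfap206 and Cfap73 were -1.83, -1.81 and -1.62.

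Of 11 genes of the nexin-dynein regulatory complex, which links neighbouring doublets and regulates the inner arms, 9 were lower in both Znhit1_KO libraries and 1, the weakly expressed Iqca, was higher in both. The median log2 change was -1.003, and the authors' deposited table marks 5 lower (Drc1, Ccdc65, Tcte1, Drc7 and Iqcd). Their log2 changes lay between -2.30 and -1.91. Gas8, a core subunit, had 34.5 and 34.1 CPM in Znhit1_KO, against 25.7 and 35.6 CPM in CTRL, and the groups overlapped. Efcab2 had tight replicates, with 36.8 and 34.8 CPM in Znhit1_KO, against 61.7 and 62.1 CPM in CTRL (log2 change -0.79, SE 0.1499). Drc3, Iqcg and Fbxl13 had log2 changes of -1.003, -0.98 and -0.29.

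**Figure D4:**
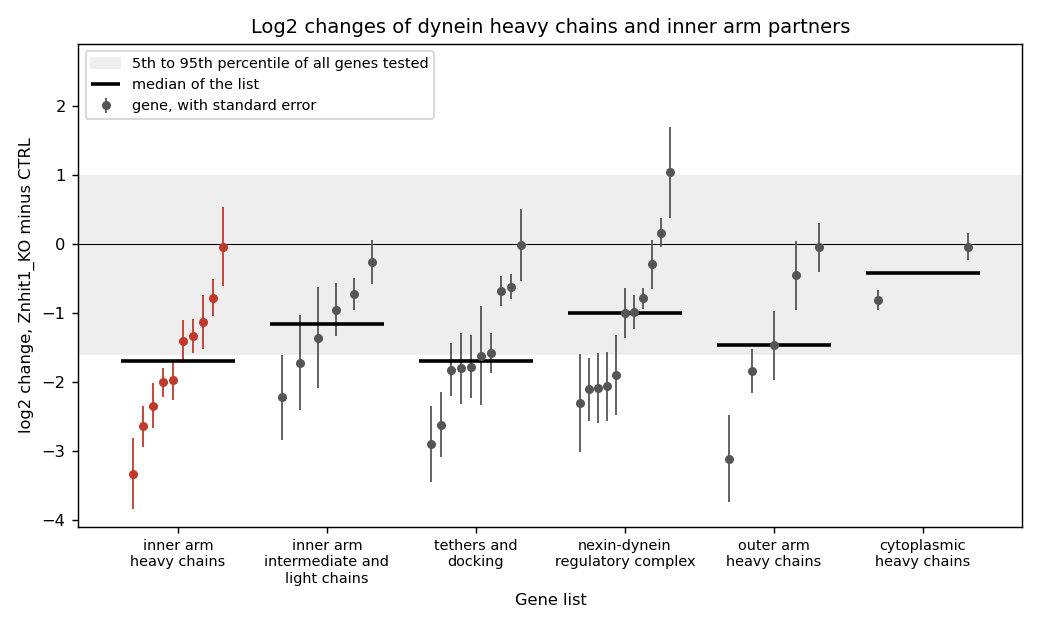
Log2 change (Znhit1_KO minus CTRL) with its standard error for each gene of 6 lists, a black bar at each median, and a grey band from the 5th to the 95th percentile of all genes tested (-1.60 to 0.98). The inner arm heavy chains (red) spread from -3.33 to -0.043 around a median of -1.70, and the tethers and docking genes have the same median to 2 decimals.

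The heavy chains of the other dyneins were set beside these. Among outer arm chains, Dnah8 and Dnah17, those of the sperm flagellum, had log2 changes of -1.85 (SE 0.320) and -3.12 (SE 0.630), both without overlap. Of those known from cilia, Dnah5 was also lower in both Znhit1_KO libraries, at 0.304 and 0.216 CPM in Znhit1_KO, against 0.600 and 0.849 CPM in CTRL (log2 change -1.47, SE 0.502). Dnah9 (-0.052, SE 0.349) and Dnah11 (-0.46, SE 0.496) overlapped between groups. Dnah8 stood at 143 and 186 CPM in Znhit1_KO, against 426 and 758 CPM in CTRL. Of the cytoplasmic heavy chains, Dync1h1 stood at 1403 and 1116 CPM in Znhit1_KO and 1439 and 1154 CPM in CTRL, a log2 change of -0.042 (SE 0.198). Dync2h1, the motor of retrograde transport in cilia, stood at 141 and 143 CPM in Znhit1_KO, against 233 and 266 CPM in CTRL, a log2 change of -0.81 (SE 0.148). The difference between the inner arm list and these lists was not tested.

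Pachytene spermatocyte markers were lower together with the heavy chains, and Sertoli cell markers were mostly higher. The marker lists, too, were chosen with earlier results of these data known, so their counts are a description only. The counts here stand beside the 21.3% of all genes tested that were lower in both Znhit1_KO libraries and the 21.8% that were higher in both. All 14 pachytene spermatocyte markers were lower in both Znhit1_KO libraries, with a median log2 change of -1.73 and a summed level of 924 and 1350 CPM in Znhit1_KO, against 1749 and 3554 CPM in CTRL. Of 10 leptotene and zygotene markers, 4 were lower in both, with a median of -0.40 and sums of 1904 and 2633 CPM in Znhit1_KO, against 2557 and 3596 CPM in CTRL. The 10 spermatogonia markers had a median of 0.012, with sums of 1348 and 1577 CPM in Znhit1_KO and 1408 and 1636 CPM in CTRL. Of 12 Sertoli cell markers, 10 were higher in both Znhit1_KO libraries, with a median of 0.44 and sums of 8771 and 7674 CPM in Znhit1_KO, against 6223 and 6594 CPM in CTRL. No marker of these 4 lists was at 0. The part of these cell types in the values of the heavy chains was not tested. Of 9 markers of multiciliated epithelium and efferent duct, Sntn was at 0 in all libraries, Mcidas and Gmnc were at 0 in CTRL replicate 2, and the sum was 16.7 and 12.2 CPM in Znhit1_KO, against 12.4 and 12.8 CPM in CTRL.

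The heavy chains did not follow the pachytene markers in every respect. Expressed as mean log2 CPM about each gene's own mean over the 4 libraries, they stood at -0.95 and -0.71 in Znhit1_KO replicates 1 and 2, against 0.48 and 1.18 in CTRL replicates 1 and 2. The pachytene markers stood at -1.28 and -0.56 in Znhit1_KO, against 0.37 and 1.47 in CTRL. The step between the replicates of a genotype was thus smaller for the heavy chains. The ratio of replicate 2 to replicate 1 in Znhit1_KO lay between 0.908 (Dnah2) and 1.62 (Dnah6) for the heavy chains, and between 1.03 (Calr3) and 3.11 (Crisp2) for the 14 pachytene markers. In CTRL it lay between 0.996 (Dnah3) and 2.35 (Dnah6) for the heavy chains, and between 1.21 (Mybl1) and 3.10 (Spata16) for the markers, so the ranges overlapped in both genotypes.

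**Figure D5:**
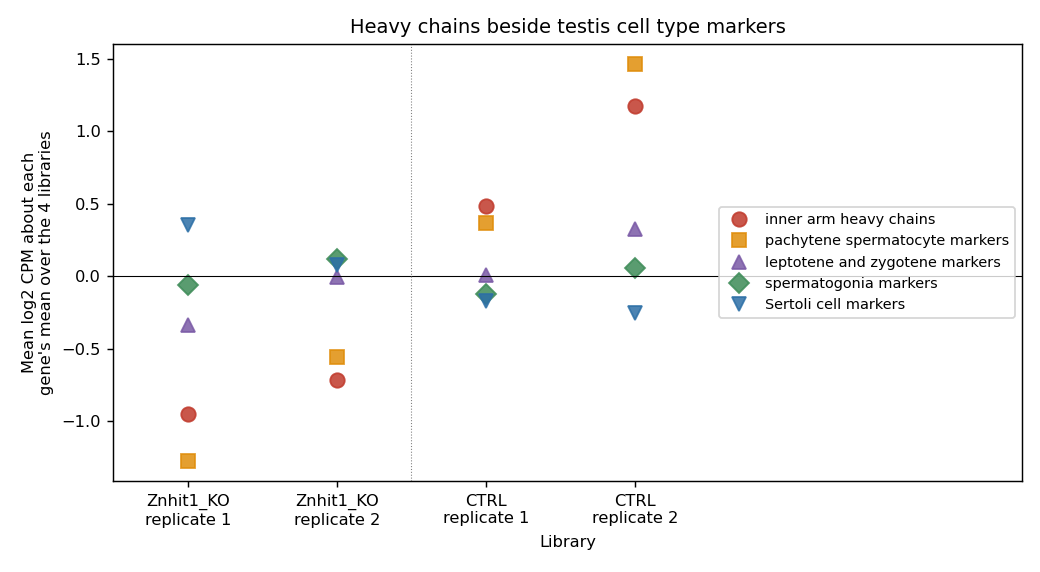
Mean log2 CPM about each gene's mean over the 4 libraries, by library, for the heavy chains and 4 marker lists; Znhit1_KO libraries are left of the dotted line. The heavy chains (circles) go with the pachytene markers (squares), and the Sertoli markers (downward triangles) run the other way, with 0.35 and 0.076 in Znhit1_KO against -0.17 and -0.25 in CTRL.

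The genes most like the heavy chains were found by the Euclidean distance, in log2 units over the 4 libraries, between a gene's centred log2 CPM and the mean profile of the heavy chains. Genes with a clone name as symbol were set aside for this list. The nearest of the others outside the family were Lrriq3 (0.0394), Med9os (0.0495), Adgb (0.109), Abo (0.138) and Lrrc37a (0.152). Lrriq3 stood at 7.92 and 9.12 CPM in Znhit1_KO, against 20.97 and 35.0 CPM in CTRL, and Adgb, an androglobin gene, at 3.68 and 4.60 CPM in Znhit1_KO, against 11.1 and 16.9 CPM in CTRL. Of the family itself, Dnah14 (0.287) and Dnah7c (0.315) lay nearest to the mean profile and Dnah6 (1.65) and Dnah3 (1.68) farthest. With 4 libraries many genes fit such a profile, and 51 genes lay nearer to it than Dnah14 did.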

How the data were processed

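Polyadenylated RNA of 4 mouse testis libraries was sequenced. Tools and build are those of the submitters' processing notes: the authors ran StringTie 2.2.1, HISAT2 2.2.1, DESeq2 1.38.3 and cutadapt 2.5 with mm10, with settings and annotation left unstated. The values in the deposited gene table are estimated counts in whole numbers, taken here as StringTie's coverage-based estimates, so no counting intervals are given. Per the file headers, the deposited comparison table covers 25236 genes. For each, the authors give log2 fold changes with standard errors, TPM, the mean signal after normalisation, a Wald score and p-values, raw and adjusted. Their call of lower or higher does not follow from an adjusted p under 0.05 alone. The 2 libraries per group limit the precision.

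Counts were tested with edgeR 4.0.16 (R 4.3.3): TMM normalisation, filterByExpr (24116 genes kept), quasi-likelihood F-test, a single genotype term, and Benjamini-Hochberg adjustment over all genes at 0.05. Log2 CPM used a prior count of 2, and standard errors were derived from the F statistic. On simulated counts, the check made was that fitted log2 changes followed those set. It set no limit on false or missed calls. DESeq2 1.42.0 and limma 3.58.1 were alternatives. Replicate counts were equal for 3.00% of genes in the Znhit1_KO pair and 2.89% in the CTRL pair, so no library was treated as a duplicate. P-values set the difference between the genotypes against the spread between these libraries. The members and lists were chosen with earlier results of these data known. Named genes were all 10 members, Znhit1, all genes of the functional lists, and the 5 genes nearest in profile whose symbol is not a clone name. Marker genes, overlapping genes and values under other settings were named beside them after being seen. Promoters came from RefSeq, and coding sequences from GENCODE M21.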

Additional observations from a re-analysis of the deposited data

How the results depend on the processing

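Of all 4 results set out for the heavy chains and their partners, the median log2 change of the heavy chains kept its sign in every alternative, between -1.98 and -1.34; leaving out 1 library gave that same range. The lower bound came without CTRL replicate 1 and the upper without CTRL replicate 2. With the authors' TPM it was -1.54 at a pseudocount of 0.1 and -1.42 at a pseudocount of 1. The number of genes without overlap, in either direction, was 9 in most settings and 7 of 8 with the Dnah7 copies summed. It was 10 without either Znhit1_KO library. The gene added was Dnah3, higher in Znhit1_KO without replicate 1 (log2 change 0.18) and lower without replicate 2 (-0.38). Overlap is less likely with 1 library in a group, and the share over all genes was not taken for these settings. Counts of calls depended on the test. EdgeR called 0 genes under DESeq2 size factors, total count scaling or no filter, and 0 to 754 with 1 library left out, 754 being without CTRL replicate 1. DESeq2 called 1041 and limma-voom 0. Of the 27 partner genes edgeR called 0 to 14 with 1 library left out and DESeq2 called 14. Replicate numbers are shared by the groups, and with the replicate number as a block edgeR called 2737 genes, 21 of the 27 partners and 9 of the 10 heavy chains. The deviations of same-numbered libraries correlated at 0.421 across genes, but the labels do not say whether a number marks a shared litter or day, so whether the numbers pair the libraries is not known. Of 127 values of single heavy chain genes under alternatives, 15 moved by at least their pooled SD. Those with a changed sign were 3, all of Dnah3: 0.18 without Znhit1_KO replicate 1, and 0.19 and 0.035 with TPM. The shift of the median of all genes stayed within 0.1 under each scaling. The causes were not tested.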

Other observations

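Markers of the efferent duct differed widely between single libraries. Pax2 stood at 4.16 and 0.857 CPM in Znhit1_KO replicates 1 and 2, against 2.41 and 0.0779 CPM in CTRL replicates 1 and 2. Pax8 stood at 4.05 and 0.727 CPM in Znhit1_KO, against 1.18 and 0.553 CPM in CTRL, and Cdh16 at 0.931 and 0.295 CPM in Znhit1_KO, against 0.200 and 0.0701 CPM in CTRL. All 3 were highest in Znhit1_KO replicate 1 and lowest in CTRL replicate 2. Foxn4 and Deup1, genes of the multiciliated cell programme, were lower in both Znhit1_KO libraries, with log2 changes of -0.58 (SE 0.289) and -1.60 (SE 0.541), while Ccno was higher in both (0.73, SE 0.403). These genes were picked out after their values were seen, and no test of them is given.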
